A study of Homo sapiens with 2 samples.

Results

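The PTH receptor, cAMP and PKC machinery is the set of proteins that carries a parathyroid hormone signal from the cell surface to the nucleus. It was described here as 49 listed genes, all of which had a probe set, of 19775 genes named on the arrays. The genes were matched to probe sets by symbol and fell into receptors, G proteins, adenylyl cyclases, cAMP phosphodiesterases, PKA and EPAC, CREB and its coactivators, PLC and IP3 receptors, PKC, and proteins that end the signal.

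Both groups were Ca9-22 cells, a human carcinoma line established from squamous cells of the gingiva. One group carried an empty lentiviral expression vector (EV) and the other the same kind of vector with the PTHLH cDNA, and infected cells of both were selected with blasticidin, to which the vector gives resistance. Total RNA of 1 culture of each was hybridised to 1 Affymetrix U133 array, so the design asks how transcripts differ when the cells are made to express PTHLH, and no error between cultures can be given. The promoter that drives the cDNA is not given in the sources used here, and each infected culture was a drug-selected population. The PTHLH transcript itself is not analysed here. The titles of both samples were followed, although their description field names a different line and gene.

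The PTHLH gene encodes parathyroid hormone-related protein, a secreted ligand made by keratinocytes and by many squamous carcinomas and known for raising blood calcium. Its receptor PTH1R activates the G protein Gs, which switches on adenylyl cyclase to make cAMP. cAMP releases the catalytic subunits of protein kinase A (PKA), which phosphorylate the transcription factor CREB, and phosphodiesterases degrade it. The same receptor can act through Gq on phospholipase C beta, which makes diacylglycerol, an activator of protein kinase C (PKC), and inositol trisphosphate (IP3), which opens calcium channels of the endoplasmic reticulum.

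CREB binds the cAMP response element (CRE), a sequence found in promoters of many cAMP-regulated genes, and some of the 49 genes hold it themselves. The full CRE, TGACGTCA on either strand, or its 5-base core, TGACG or its reverse complement CGTCA, was searched in RefSeq promoters (GRCh38.p14, 250 bases before to 50 bases after each annotated start). A full CRE contains the core on both strands. Of the 49 genes, 39 had a promoter in the table, with 98 promoters in all, and many of these overlap. The full CRE lay in 6 of the 98 promoters (6.12%), from 4 genes, against 1.85% of all 35116 promoters. The core lay in 29 (29.6%) against 24.6% of all promoters. Genes with several promoters count more than once, and counted by gene the full CRE was in 4 of 39 genes (10.3%) against 2.25% of 27305 genes, and the core in 19 (48.7%) against 28.4%. A gene with more promoters in the table has more chances to hold a motif, and these 39 genes have more promoters per gene than all genes have. The windows below are shown because they hold the full CRE in the 4 genes, and the core in ADRB1 and CREBBP, which are among the genes at least 1.5-fold changed. Capitals mark the match for which each window is shown, and each window is printed 5′ to 3′ on the strand of the gene. Further cores, within a window or elsewhere in these promoters, are not marked or printed.
PDE4A, chr19:10416759-10416788, plus strand: cgtcagtccgcTGACGTCAcgccccaggag
CREM, chr10:35195841-35195870, plus strand: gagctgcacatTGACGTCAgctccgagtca
PRKAR1A, chr17:68512370-68512399, plus strand: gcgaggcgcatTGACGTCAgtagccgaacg
PRKCZ, chr1:2073601-2073630, plus strand: ttgttttcctgTGACGTCAgcgtcagctcc
ADRB1, chr10:114043768-114043796, plus strand: gctgcaggagccTGACGcgaggccccggg
CREBBP, chr16:3880794-3880822, minus strand: ggccgtgcgtggTGACGccgcgggggggt
The CRE of PRKCZ began 52 bases before an annotated start and that of PDE4A 3 bases before. Those of CREM and PRKAR1A began 2 bases after a start. PRKAR2B, ITPR1 and PRKCA, also at least 1.5-fold changed, held neither motif in the 1 promoter that the table gives for each. A match describes the letters only and does not show binding.

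Each array gave 54675 linear intensities (arbitrary units), whose median was 19.5 for EV and 19.4 for PTHLH. A gene was read from its brightest probe set (the oligonucleotides that together read one transcript), and differences are log2 values of PTHLH minus EV. Depth has no meaning for arrays, and their number limits the precision. Between the brightest pair of probe sets of a gene, both above the array medians, the SD of one log2 difference was 0.20 over 5599 genes and 0.23 over 25 of the 49 genes. This covers differences between probes, not between cultures. An identical value on both arrays was found for 6.16% of all probe sets and for 13 of the 173 probe sets of the 49 genes, 12 of which lay below both medians. All 6 measured of 9 markers of oral squamous epithelium lay above both medians, with a summed intensity of 14025 and 16470. KRT5 held the largest part of this sum and went from 7823 to 10228. By log2 difference 4 of the 6 lay above 0 and 2 below, CDH1 (-0.16) and EPCAM (-0.05). Of 6 fibroblast markers 3 lay above the medians, with a sum of 2519 and 1741 that was nearly all COL1A1 (2437 and 1652), while LUM (3.58 and 4.28) and COL3A1 (5.72 and 6.32) lay below. Of 4 endothelial markers 2 lay above both medians, VWF (129 and 128) and PECAM1 (40.4 and 39.9). The 4 summed to 184 and 182, with CDH5 at 8.86 on both arrays. The 3 measured leukocyte markers summed to 37.1 and 38.9, and none lay above both medians. The part of any of these cell types in the differences below was not tested.

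Most of the machinery differed little between the cultures. By a threshold of 1.5-fold, 1 of the 49 genes was higher with PTHLH, 5 were lower and 43 passed it in neither direction. Over all 19775 genes 1.97% were higher by this threshold and 3.52% lower, so the count of higher genes was near the background and that of lower genes above it. The 49 genes and the other lists below were chosen with earlier results of these data known. The comparison with the background therefore describes the lists and is no result about the pathway. The 1 higher gene was the CREB coactivator CREBBP. The 5 lower genes were the beta-1 adrenergic receptor ADRB1, the IP3 receptor ITPR1, the phosphodiesterase PDE4A, the kinase PRKCA and the PKA regulatory subunit PRKAR2B. In bulk RNA, fewer cells that express a gene and less RNA per cell cannot be told apart. The median log2 difference of the 49 genes was -0.14 against 0 for all genes, with 29 below 0, 19 above 0 and 1 at 0, while 47.0% of all genes lay below 0.

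**Figure D1:**
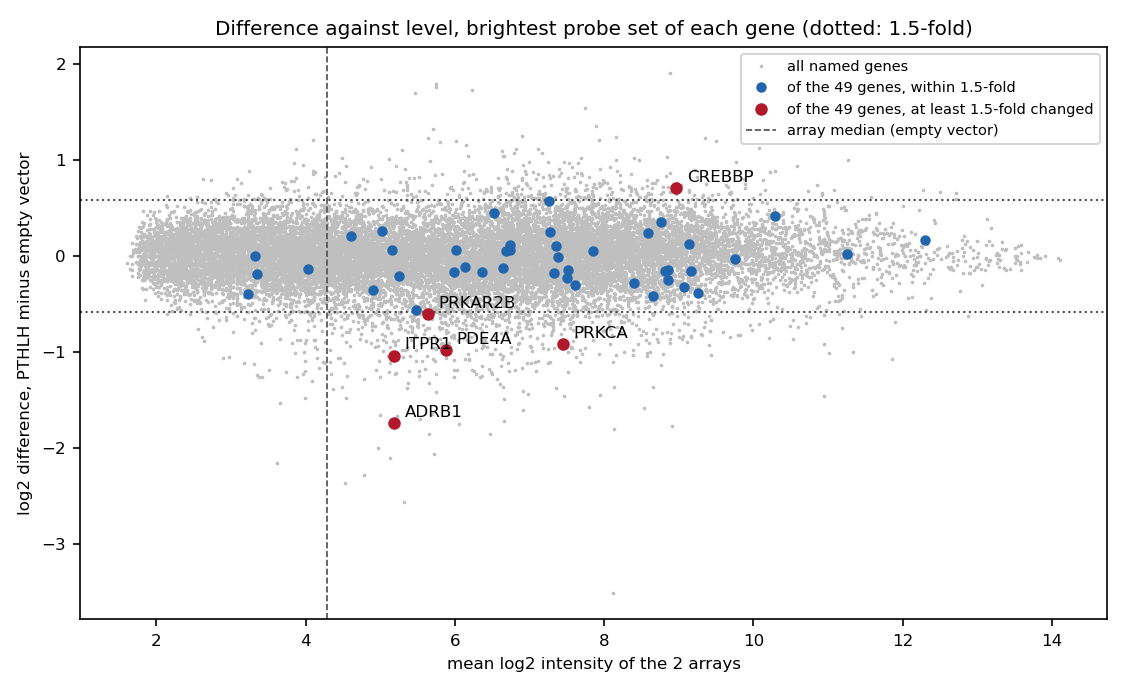
Log2 difference (PTHLH minus EV, vertical axis) against the mean log2 intensity of both arrays (horizontal axis) for the brightest probe set of 19775 genes (grey) and of the 49 genes described here (blue, or red if at least 1.5-fold changed). Most of the 49 lie between the dotted 1.5-fold lines, with ADRB1 lowest at -1.74 and CREBBP highest at 0.71.

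The counts depended on which probe set of a gene was read. Of the 49 genes, 45 lay above the median of both arrays and 4 below both, and all 6 changed genes were among the 45. Of all 12982 genes above both medians, 2.50% were higher and 4.36% lower. Of the 173 probe sets, 4 were at least 1.5-fold higher and 6 lower, against 1.81% and 2.65% of all probe sets. By the median over the probe sets of each gene, none of the 49 genes was higher and 1, PRKAR2B, was lower, against 1.25% and 2.25% of all genes. PRKAR2B has a single probe set. The counts above describe the brightest probe set of each gene, and the plot of all probe sets shows how the others lay.

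**Figure D2:**
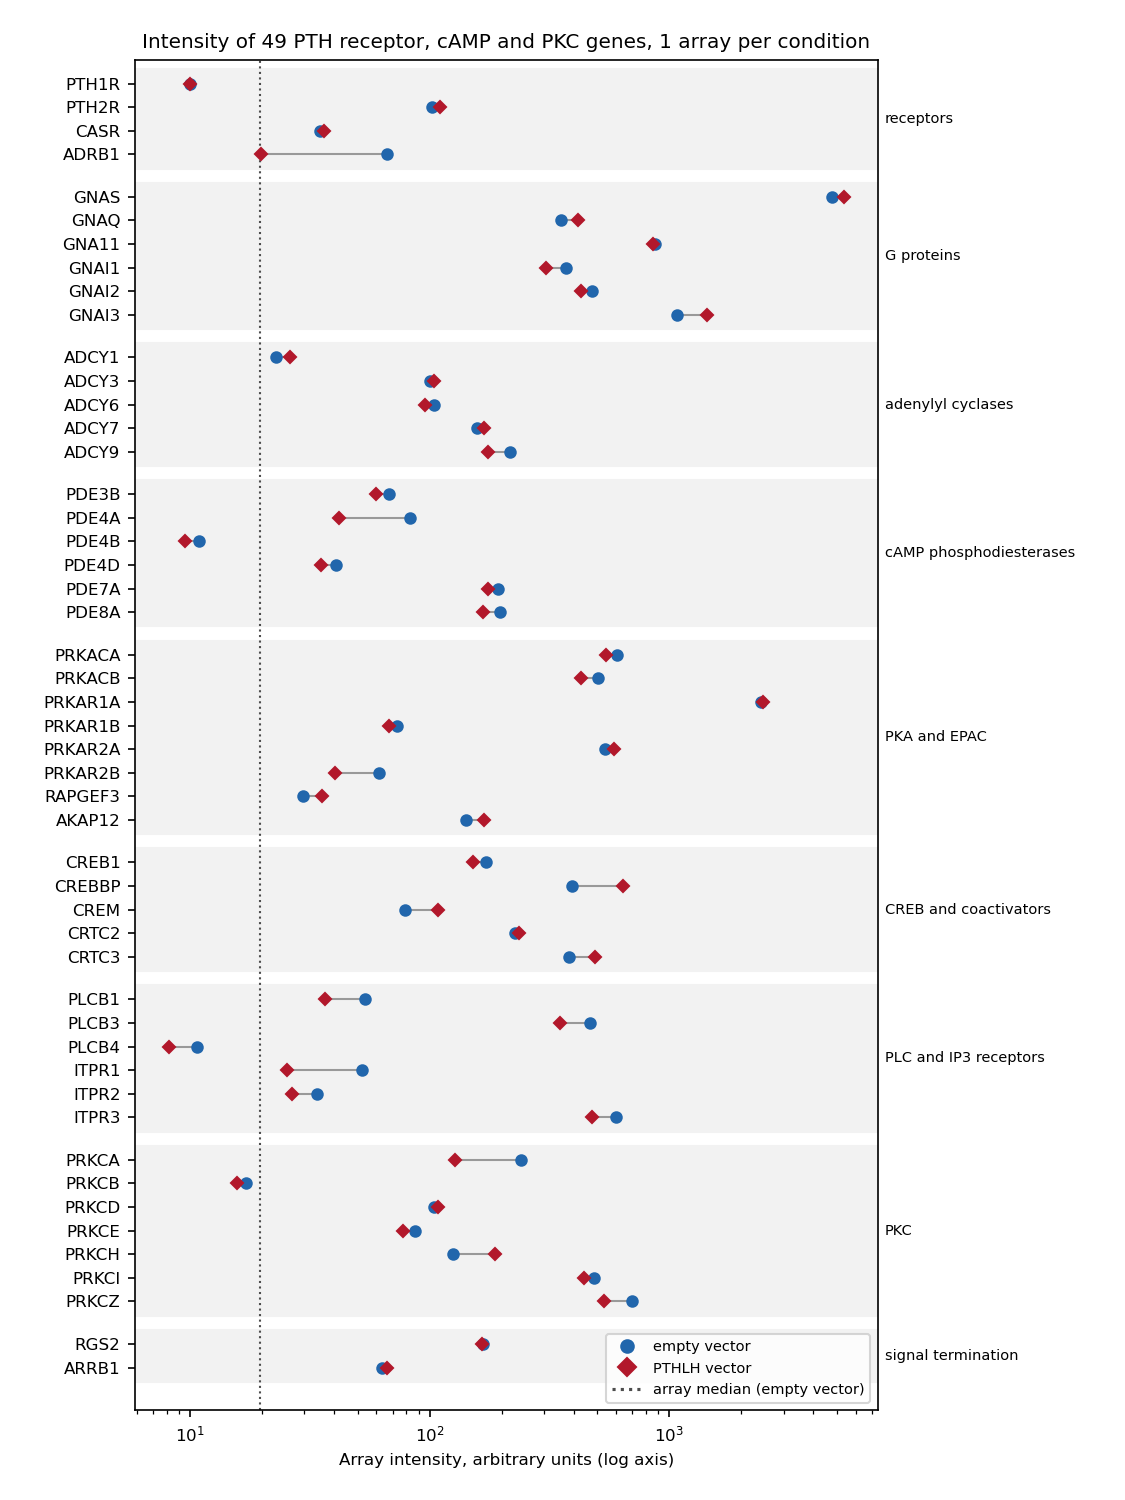
Array intensity in arbitrary units (log axis) of the brightest probe set of each of the 49 genes, grouped by step, on the EV array (blue circles) and the PTHLH array (red diamonds), 1 array each. The pairs nearly overlap for most genes, while ADRB1 goes from 66.5 to 19.8, next to the array median (dotted), and CREBBP from 392 to 641.

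Receptors. The receptor for PTHLH itself was dim, and the receptor with the largest difference was an adrenergic one. PTH1R, the receptor for parathyroid hormone and for the PTHLH protein, had an intensity of 10.02 on both arrays, 0.51 times the array median. The value was identical on both arrays, as for 6.16% of probe sets, and its 1 probe set gives no second reading. PTH2R, a related receptor that parathyroid hormone activates, had 103 and 111 on the EV and PTHLH arrays, and CASR, the calcium-sensing receptor, 34.9 and 36.4. Their log2 differences were 0.11 and 0.06. ADRB1, a receptor for noradrenaline that couples to Gs, had 66.5 and 19.8, a log2 difference of -1.74 (3.35-fold lower). On the PTHLH array it thus lay at 1.02 times the median. The other probe sets of ADRB1 lay below both medians, with log2 differences of 0 and -0.39, so the difference rests on 1 probe set.

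G proteins. All 6 alpha subunits were well above the array median and none was 1.5-fold changed by its brightest probe set. GNAS, the alpha subunit of Gs that activates adenylyl cyclase, had 4771 and 5351, a log2 difference of 0.17. Its 6 brightest probe sets carry the suffix x, which marks possible cross-hybridisation, and lay between -0.07 and 0.17. Of those without this suffix, the ones above both medians went from 39.9 to 52.4 (0.39) and from 25.7 to 44.2 (0.78). The remaining ones lay below both medians, between -0.36 and 0.30. GNAQ and GNA11, the alpha subunits of the Gq class that activate phospholipase C beta, had 354 and 417 (0.24) and 873 and 854 (-0.03). The inhibitory subunits, which restrain adenylyl cyclase, went different ways. GNAI3 had 1079 and 1437 (0.41, and 0.20 and 0.31 by its other probe sets). GNAI1 had 372 and 305 (-0.29) but 0.07 by its other probe set, and GNAI2 had 476 and 427 (-0.15).

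Adenylyl cyclases. The 5 enzymes that make cAMP lay between -0.31 and 0.20, with a median log2 difference of 0.05. ADCY7 had 157 and 169 (0.10), ADCY3 101 and 104 (0.05) and ADCY6, which calcium inhibits, 104 and 95.6 (-0.12). ADCY9 had 217 and 176 (-0.31), while another probe set above both medians had 23.2 and 30.3 (0.39), so its direction depended on the probe set. ADCY1, a calmodulin-stimulated cyclase, was close to the median, with 22.7 and 26.2 (0.20).

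cAMP phosphodiesterases. All 6 enzymes had a lower brightest probe set on the PTHLH array, with a median log2 difference of -0.20, though 5 lay within 1.5-fold. PDE4A, a cAMP-specific enzyme, had 82.8 and 42.0, a log2 difference of -0.98 (1.97-fold lower). Its other 4 probe sets were dim and lay between -0.21 and 0.23. PDE8A had 196 and 167 (-0.23), PDE4D 40.7 and 35.3 (-0.21), PDE3B, which cGMP inhibits, 67.4 and 59.9 (-0.17), and PDE7A 192 and 174 (-0.14). Each of these differences was within or near the SD between probe sets. PDE4B lay below both medians, with 10.9 and 9.53 (-0.19). With the median over probe sets 5 of the 6 were below 0 and the median log2 difference was -0.09.

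PKA and EPAC. Of the 8 genes of this step, which hold 6 PKA subunits, a cAMP sensor and a scaffold, only PRKAR2B passed 1.5-fold by its brightest probe set, and the median log2 difference of the 8 was -0.04. The catalytic subunits PRKACA and PRKACB, which phosphorylate CREB, had 606 and 545 (-0.15) and 506 and 427 (-0.25). PRKAR2B, a type II regulatory subunit that binds cAMP and holds the catalytic subunits inactive, had 61.2 and 40.3, a log2 difference of -0.60 (1.52-fold lower), just past the threshold. The other type II subunit, PRKAR2A, had 537 and 588 (0.13), with its other probe sets between -0.15 and 0.37. The type I subunit PRKAR1A had 2417 and 2458 (0.02) by its brightest probe set, but 0.37, 0.62 and 0.19 by its others, all above 0. PRKAR1B had 72.8 and 67.4 (-0.11) and 0.46 by its other probe set, above both medians. RAPGEF3 encodes EPAC1, a cAMP sensor that acts on the GTPase Rap without PKA, and had 29.7 and 35.5 (0.26). AKAP12, a scaffold that anchors PKA, had 142 and 169 (0.25), and -0.04 by another bright probe set.

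CREB and its coactivators. By the brightest probe set this step had the highest median of the 9, at 0.36 over 5 genes, and held the 1 gene at least 1.5-fold higher. CREBBP, a histone acetyltransferase that binds phosphorylated CREB, had 392 and 641, a log2 difference of 0.71 (1.64-fold higher). Its second brightest probe set, above both medians, went from 101 to 140 (0.47), and the remaining ones had 0.12 and 0.08, so all 4 lay above 0 and 1 passed the threshold. CREM, a CREB relative that also gives rise to a cAMP-induced repressor, had 78.9 and 108 (0.45), with its others between -0.17 and 0.28. CRTC3 and CRTC2, coactivators held in the cytoplasm until cAMP rises, had 383 and 491 (0.36) and 227 and 236 (0.06). CREB1 itself had 171 and 151 (-0.18), with its 6 other probe sets between -0.43 and 0.07. Read by the median over probe sets, the step had a median of 0.06, and 4 of its 5 genes were again above 0. It was then no longer the highest, as PKA and EPAC had 0.15 and the G proteins 0.08.

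PLC and IP3 receptors. All 6 genes of the calcium arm had a lower brightest probe set on the PTHLH array, with a median log2 difference of -0.41, the lowest of the 9 steps. ITPR1, an IP3-gated calcium channel, had 52.2 and 25.4, a log2 difference of -1.04 (2.05-fold lower), while its other 4 probe sets were dim and ranged from -0.37 to 0.79. ITPR3 had 599 and 478 (-0.33), and its second probe set above both medians went from 162 to 121 (-0.42). ITPR2 had 33.8 and 26.5 (-0.35), but 23.2 and 31.5 (0.44) by another. The IP3 receptors thus shared a direction by the brightest probe set, and ITPR3 alone had it in a further bright one.

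The phospholipases of the beta class were also lower by the brightest probe set. PLCB3 had 468 and 350 (-0.42) by its 1 probe set, which carries the suffix x. PLCB1 had 53.9 and 36.6 (-0.56), close to the threshold, but 0.25 and 0.32 by dim probe sets. PLCB4 lay below both medians, with 10.7 and 8.15 (-0.39). With the median over probe sets 5 of the 6 genes of this step were below 0, with a median of -0.21, and with the second brightest probe set, a setting chosen after seeing the data, 3 of 5 were. Without probe sets of suffix x or s, PLCB3 had no reading. Of the 5 genes left, 4 were then below 0 and ITPR3 at 0, with a median of -0.39.

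PKC. By the brightest probe set, 5 of the 7 kinases lay below 0 and 2 above. PRKCA, a conventional isoform that needs calcium and diacylglycerol, had 241 and 127, a log2 difference of -0.92 (1.89-fold lower). Its other probe sets above the median had -0.39 and -0.27, the same direction within 1.5-fold. PRKCH, an isoform of squamous epithelium that needs diacylglycerol but not calcium, had 125 and 187, a log2 difference of 0.58 (1.49-fold higher), just short of the threshold. Its other probe sets were dim, and each held an identical value on both arrays. The atypical isoforms, which need neither, were lower or flat: PRKCZ had 699 and 534 (-0.39) by its 1 probe set and PRKCI 487 and 442 (-0.14). PRKCE had 87.2 and 77.8 (-0.17), but 22.6 and 28.1 (0.32) and 23.8 and 23.4 (-0.02) by others above both medians, so its direction depended on the probe set. PRKCD, also diacylglycerol-dependent, had 104 and 109 (0.06). PRKCB lay below both medians, with 17.2 and 15.7 (-0.14).

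Signal termination. RGS2, which speeds GTP hydrolysis by Gq and is known as a cAMP-induced gene, had 166.5 and 165.3 (-0.01). ARRB1, the beta-arrestin that uncouples phosphorylated receptors, had 63.4 and 66.1 (0.06), while all 6 of its other probe sets lay below 0, between -0.38 and -0.05. Neither was 1.5-fold changed by any probe set.

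**Figure D3:**
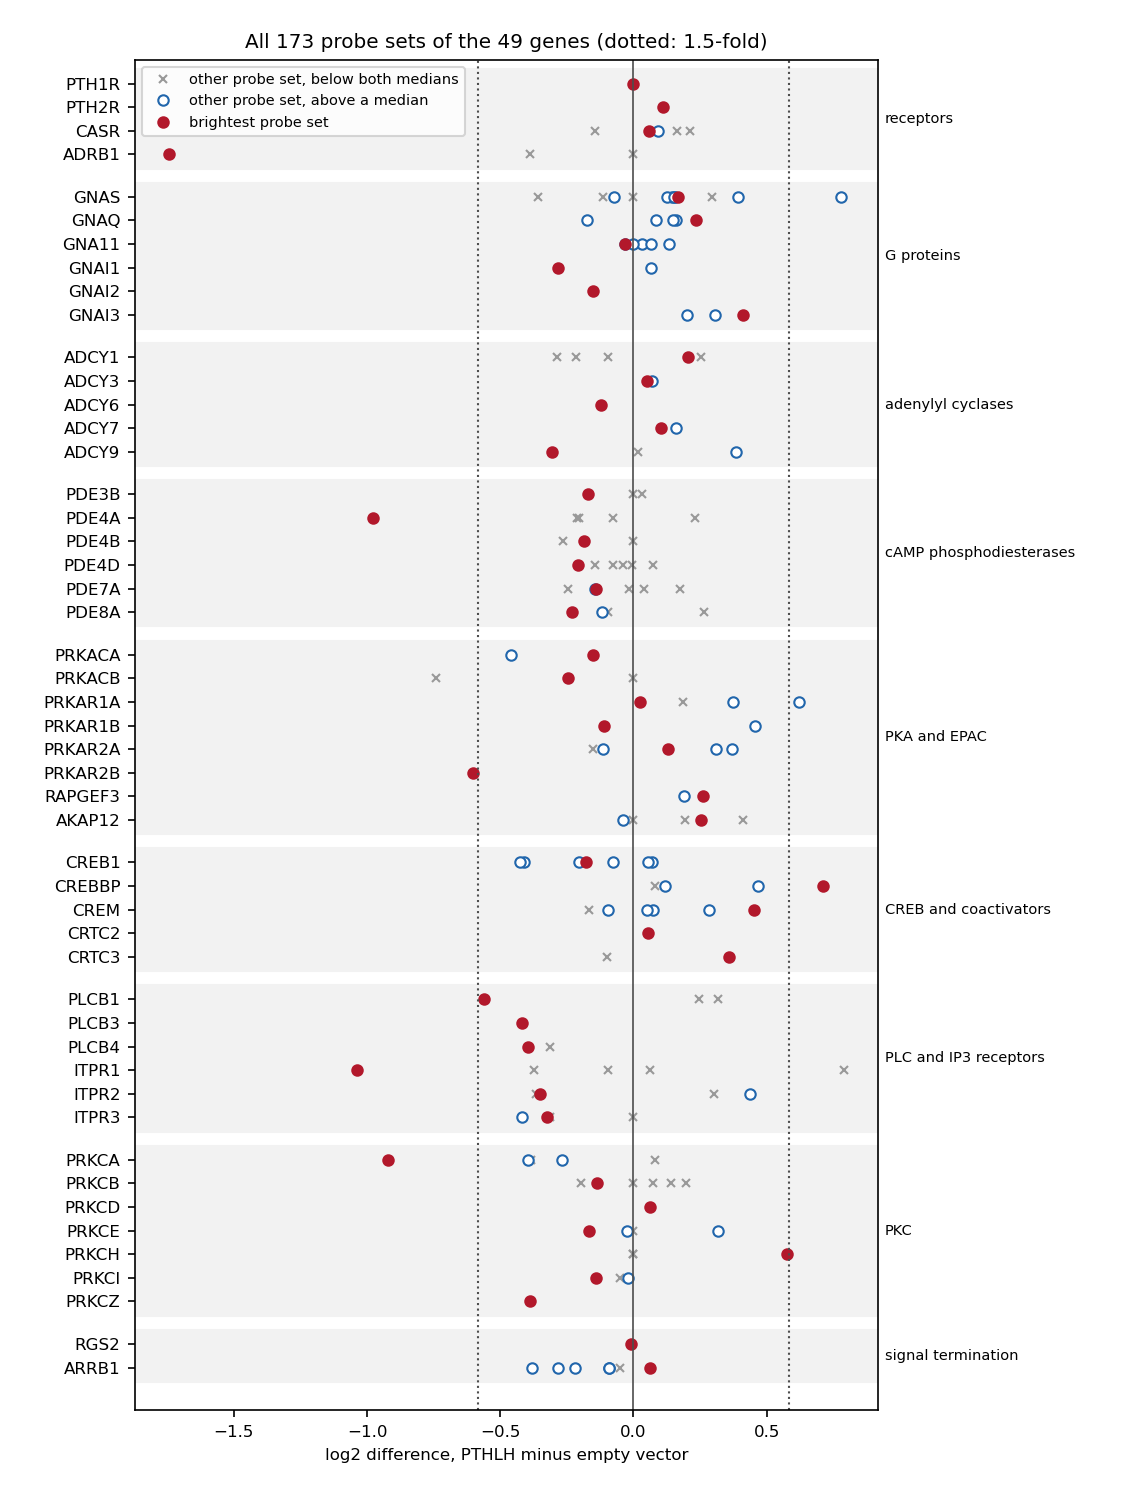
Log2 difference (PTHLH minus EV) of all 173 probe sets of the 49 genes, grouped by step, with the brightest probe set in red, others above a median as open blue circles and others below both medians as grey crosses. For ADRB1, PDE4A and ITPR1 the red point lies far to the left of the other probe sets, while those of CREBBP all lie to the right of 0.

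Across the 25 genes with at least a pair of probe sets above both medians, the brightest pair had the same sign in 17. The pair lay at least 1.5-fold apart in 2, ADCY9 and ITPR2. Besides the brightest ones, 4 probe sets of the 49 genes were at least 1.5-fold changed. These were the probe sets of GNAS (0.78) and PRKAR1A (0.62) above both medians, and dim ones of ITPR1 (0.79) and PRKACB (-0.74).

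Other genes of the same steps pointed mostly to lower values where they changed. Of 105 listed, 94 were measured. None was at least 1.5-fold higher and 8 were lower, against the same 1.97% and 3.52% of all genes, and their median log2 difference was -0.03. PKIA and PKIB, small proteins that inhibit the catalytic subunits of PKA, had 99.4 and 53.7 (-0.89) and 19.97 and 10.87 (-0.88), and both had a dimmer probe set that was also at least 1.5-fold lower (-1.12 and -1.30). The related inhibitor PKIG had 623 and 548 (-0.19). PKIB was close to the array median on the EV array and below it on the PTHLH array.

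Regulators that end the signal of G protein-coupled receptors were among the lower ones. RGS10, which speeds GTP hydrolysis by Gi-class subunits, had 299 and 154 (-0.95), with its other probe sets at -0.50 and -0.70. RGS16, of the same family, had 69.8 and 46.0 (-0.60) and -0.54 by its second brightest probe set. GRK3, a kinase that phosphorylates active receptors, had 56.5 and 28.5 (-0.98), but -0.13 and 0.09 by dim probe sets. Of 15 measured genes of this step these 3 were lower, against 3.52% of all genes, and the median was 0. By the median over probe sets 10 of the 15 lay below 0 and 3 above, with a median of -0.11.

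The other lower genes were a receptor, a G protein subunit and a phospholipase. PTGER4, a prostaglandin E receptor that couples to Gs, had 37.7 and 23.3 (-0.69), and 0.09 by a dim probe set. GNG2, a G protein gamma subunit, had 60.6 and 29.5 (-1.04), with its dim probe sets between -0.12 and 0.23. PLCG2, a phospholipase C that tyrosine kinases activate, had 336 and 209 (-0.68), and -0.46 by another probe set above both medians. The 7 other genes of that step, ITPRIP, a partner of the IP3 receptor, and 6 phospholipases, all lay below 0, with a median of -0.21 and values from -0.68 to -0.03. By the median over probe sets 6 of these 7 did. None of the other 5 adenylyl cyclases, 8 phosphodiesterases, 7 CREB-step genes and 10 PKC-related genes was 1.5-fold changed by its brightest probe set. Among them EP300, the acetyltransferase related to CREBBP, had 116 and 169 (0.54), and MARCKS, a major PKC substrate, 2540 and 3315 (0.38).

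Known target genes of CREB were not higher by the threshold. Of 25 listed, 23 were measured, none was higher by the threshold of 1.5-fold and 5 were lower, against 1.97% and 3.52% of all genes, and their median log2 difference was -0.15 against 0. The lower ones were ATF3, NR4A2, JUNB, FOS and MAFF. ATF3, a stress-induced factor, went from 137 to 59.0 (-1.21), but had 0.01 by another probe set above both medians. The nuclear receptor NR4A2 went from 51.0 to 27.8 (-0.87) by a probe set of suffix x, but had -0.06 and -0.56 by its others, also above both medians. The AP-1 subunits were JUNB (773 to 452, -0.77) and FOS (20.7 to 13.0, -0.67). MAFF went from 272 to 180 (-0.59), and had -0.37 by its other probe set. FOS was near the array median. By the median over probe sets, 2 of them, FOS and JUNB, each with a single probe set, were lower by the threshold, against 2.25% of all genes. Without probe sets of suffix x or s, 17 of the target genes were left. FOS, JUNB and MAFF were then lower by the threshold, against 3.41% of all genes, and ATF3 and NR4A2 were not among them. Many of these genes also respond to growth factors and stress, so they are not markers of cAMP alone. The cAMP-induced genes among the 49, such as CREM, PDE4D and RGS2, had the log2 differences of 0.45, -0.21 and -0.01 given above.

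**Figure D4:**
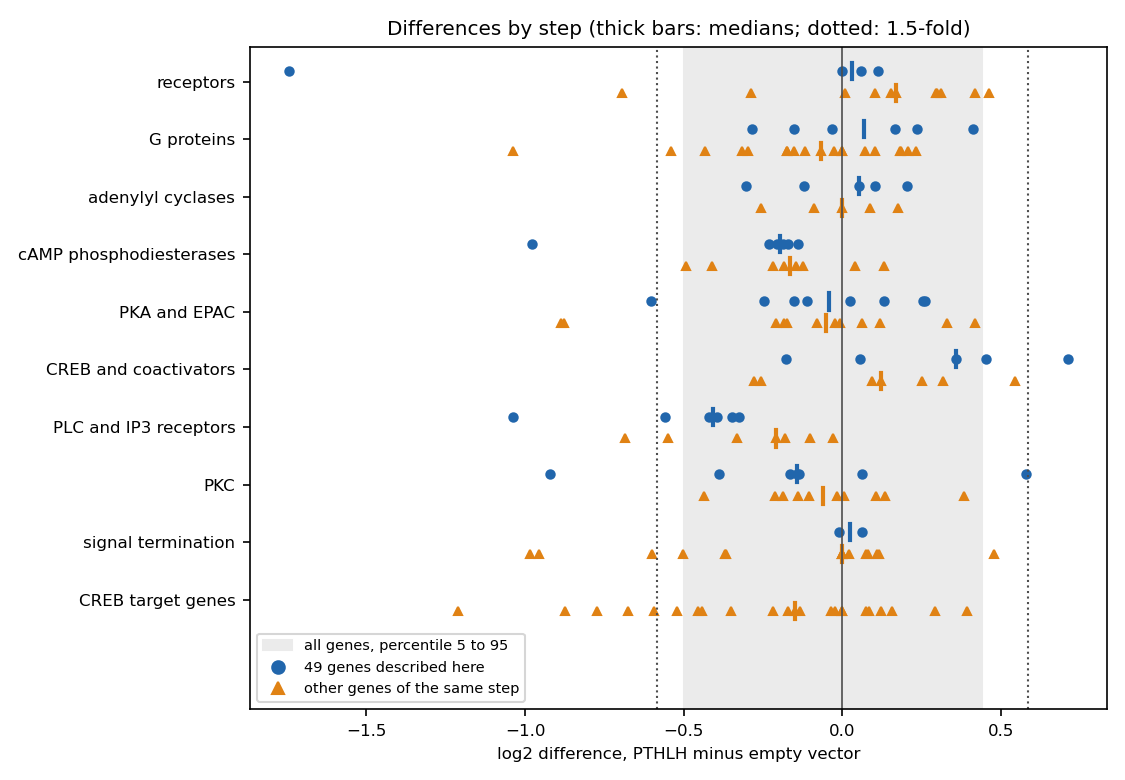
Log2 difference (PTHLH minus EV) of the brightest probe set by step, for the 49 genes (blue circles) and for other genes of the same step or CREB target genes (orange triangles), with medians as thick bars and percentile 5 to 95 of all genes in grey. The points of PLC and IP3 receptors all lie to the left of 0, with medians of -0.41 and -0.21, and no triangle passes the upper dotted 1.5-fold line.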

How the data were processed

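One Affymetrix U133 array was run per culture, EV and PTHLH. The files as deposited hold linear intensities, 1 per probe set. Not given in the sources used here were the authors' background correction, normalization and summary. Probe sets were named through GEO's platform annotation, with symbols updated by gene identifier (assembly GRCh38.p14). Of 54675 probe sets, 41097 had 1 symbol, 1801 had several and 11777 are unnamed here. Only the first kind was used. All 49 genes matched under their current symbol.

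A gene was read from its brightest probe set (by mean log2 intensity), and the EV log2 value was subtracted from the PTHLH one. Genes past 1.5-fold, a threshold taken from the study, were counted. No test was run, because there are no replicates. All 49 genes are named, with each other pathway gene past 1.5-fold and above a median. EP300, ITPRIP, MARCKS, PKIG, PDE1C, RGS12 and the cell type markers with values were picked after their values were seen. The genes, lists and settings were chosen with earlier results of these data known. The counting was tested on simulated data in which all probe sets of a gene were given the same 2-fold change. This checks the code only, because real probe sets of a gene often differed. Python 3.11.15, pandas 2.3.3, numpy 2.4.6 and matplotlib 3.10.9 were used.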

Additional observations from a re-analysis of the deposited data

How the results depend on the processing

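No paired analysis was possible because each condition has 1 array, and for the same reason no sample could be left out. None of the 6 changed genes turned direction under any planned setting. Of 386 values of single genes recomputed under the planned settings, 350 moved by less than the SD between probe sets and 36 by more. Some settings could hardly move a value. Centring shifts all values by 0.04, and leaving out dim probe sets or setting a floor keeps the value of a bright one. The 350 are therefore no measure of how firm a single value is. Quantile normalization, centring on 5814 bright probe sets (a shift of 0.04), leaving out dim probe sets and a floor at percentile 40 kept 1 gene higher and 4 to 6 lower of the 49 (of 45 without dim probe sets). Over all genes these settings gave 1.55% (centred) to 2.57% (without dim probe sets) higher. The lower share ran from 3.26% (floor) to 4.76% (without dim probe sets), and was 4.11% with centring, which gave the 6. PRKAR2B fell short with quantile normalization and with 16 added to each intensity, and PLCB1 (-0.60) passed with centring.

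The choice of probe set and the threshold moved the counts by more than 1.5 times. With the median over probe sets 0 of the 49 genes were higher and 1 lower, and 3 of the other pathway genes (PKIA, PKIB and RGS10) were lower. The shares over all genes were then 1.25% higher and 2.25% lower. With the probe set of largest change 3 of the 49 were higher (CREBBP, GNAS and PRKAR1A), and 6 lower, with 2 other pathway genes higher (PDE1C, 0.59, and RGS12, 0.62) and 11 lower, against 3.48% and 4.98% of all genes. With the second brightest probe set, chosen after seeing the data, 0 of the 39 genes with one were higher and 1 lower (PRKACB), and 2 other pathway genes (PKIA and PKIB) were lower, against 2.17% higher and 2.40% lower of all genes with one. At 2-fold, 0 of the 49 were higher and 2 lower (ADRB1 and ITPR1), with 1 other gene lower (GNG2), against 0.182% and 0.733% of all genes. Other pathway genes at least 1.5-fold lower numbered 5 of 94 with 16 added, against 1.95% of all genes. Without probe sets of suffix x or s they numbered 5 of 83, against 3.41% of all genes. The median log2 difference of the 49 genes was -0.090 with 16 added, -0.17 when centred, -0.010 with the median over probe sets, 0 with the largest change and 0.033 with the second brightest. The cause of these shifts was not tested.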
